A study of Rattus norvegicus with 31 samples.

Results

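The cytosolic ribosomal proteins were followed in the gastrocnemius of Ucp1 knockout and control rats. They were taken as every row of the deposited table whose symbol was Rpl or Rps plus a number, together with the stalk and laminin-receptor members Rplp0, Rplp1 and Rpsa. Rows for copies that share a symbol were kept apart. This gave 69 rows of 11289 listed, namely 27 of the small subunit, 40 of the large subunit and 2 of the stalk, and all 69 passed the filter that left 10082 rows for testing. Of 75 standard names searched, which left out paralogs, 58 had a row. The other 17, among them Rps6, Rps19, Rpl8, Rpl9, Rpl38, Rpl39 and Rplp2, are not analysed here.

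The rats were chow-fed female Sprague Dawley animals aged 7 months. The groups were knockout rats kept for 14 days at 4 °C (n = 8), knockout rats kept for the same period at room temperature (n = 7), control (WT) rats at 4 °C (n = 8) and control rats at room temperature (n = 8). Each animal gave 1 QuantSeq library, a protocol that reads 1 tag close to the poly(A) tail of each mRNA. The comparisons ask how muscle responds to cold when the heat-producing uncoupling protein of brown fat is present or missing. The labels do not say how the knockout was made, whether the deletion is whole-body, or which animals share a litter or batch.

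Ribosomal proteins surround the ribosomal RNA of the small subunit, which reads the mRNA, and of the large subunit, which joins amino acids. Their stalk recruits elongation factors. Most of their mRNAs start with an uninterrupted run of C and T, the terminal oligopyrimidine (TOP) tract, through which mTOR signalling sets how well they are translated. A 3′ tag count measures the level of the mRNA and carries no information on its translation. In a bulk library, fewer cells of a type and less RNA per cell cannot be told apart.

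Because the TOP tract lies where transcription starts, RefSeq sequence around the annotated gene starts (assembly GRCr8) is shown for the members on which the results below turn. Each window holds 30 bases before and 30 bases from the start, 60 bases in all, written 5′ to 3′ on the gene's strand. Capitals mark the longest run of C and T.
Rplp0, chr12:46718361-46718420, minus strand: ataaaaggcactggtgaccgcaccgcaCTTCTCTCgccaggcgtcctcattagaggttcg
Rpl34, chr2:221962254-221962313, minus strand: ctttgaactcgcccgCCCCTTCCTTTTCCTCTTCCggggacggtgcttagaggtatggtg
Rps23, chr2:23814487-23814546, plus strand: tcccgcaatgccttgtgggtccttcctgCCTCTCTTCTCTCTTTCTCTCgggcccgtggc
Rpl35, chr3:43165892-43165951, minus strand: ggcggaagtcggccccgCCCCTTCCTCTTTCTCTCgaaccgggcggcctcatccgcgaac
Rpl3, chr7:113507961-113508020, minus strand: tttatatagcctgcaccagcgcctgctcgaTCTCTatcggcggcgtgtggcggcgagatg
Rpl3l, chr10:14258416-14258475, plus strand: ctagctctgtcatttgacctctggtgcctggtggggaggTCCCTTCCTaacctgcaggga

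Rplp0 and Rpl34 are the only members of the 69 that edgeR called for cold averaged over genotypes, where it called 5.65% of all genes. Both calls sat near the threshold. Rps23 and Rpl35 ended opposite ways along the main axis of variation between libraries. Rpl3 and Rpl3l are the general and the striated-muscle form of the same protein. The longest runs in the Rps23, Rpl34 and Rpl35 windows, 21, 20 and 18 bases, cross the annotated start. That of Rplp0 has 8 bases and crosses it too. In the Rpl3 window the longest run has 5 bases and begins at the start itself, and in Rpl3l it has 9 bases and begins at base 10 counted from the start.

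A start window was found for 44 of the 56 genes whose deposited gene identifier carried the same symbol in RefSeq, 45 windows in all because Rps27a has 2. A pyrimidine run of at least 8 bases occurred in 32 of the 45 (71.1%), against 23.2% of all 33469 RefSeq start windows of the rat. At least 1 of the motif CTTTCC, the motif CTTTTC and the motif CTCTTT, which can overlap each other and lie inside such a run, occurred on the gene's strand in 23 of 45 (51.1%), against 6.7% of all windows. On the opposite strand the same motifs occurred in 3 of 45 (6.67%), against 6.63% of all windows. These shares describe sequence only. They do not show which start the muscle uses, and a window without a motif says only that these letters are missing from it.

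Libraries held 6.56 to 11.86 M counts, and the ribosomal protein rows took 2.84 ± 0.51% of them in knockout rats in the cold, 2.88 ± 0.45% in knockout rats at room temperature, 2.57 ± 0.16% in control rats in the cold and 2.62 ± 0.47% in control rats at room temperature (SD). Single libraries ranged from 1.89% to 3.80%, and all 4 groups overlapped. Muscle fibre markers were abundant, with Acta1 at a mean of 38427.5 CPM (counts relative to the library total after TMM scaling), and 11 of the 12 fixed for that list were tested. On the second principal component of the other genes, which held 14.1% of their variance, the libraries of control animals 1 and 2 at room temperature scored -62.2 and -79.4, against -9.56 to 17.1 for the rest, and they had the 2 lowest ribosomal shares, 1.89% and 2.02%. Ucp1 was not analysed here, and genotypes follow the labels.

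**Figure D1:**
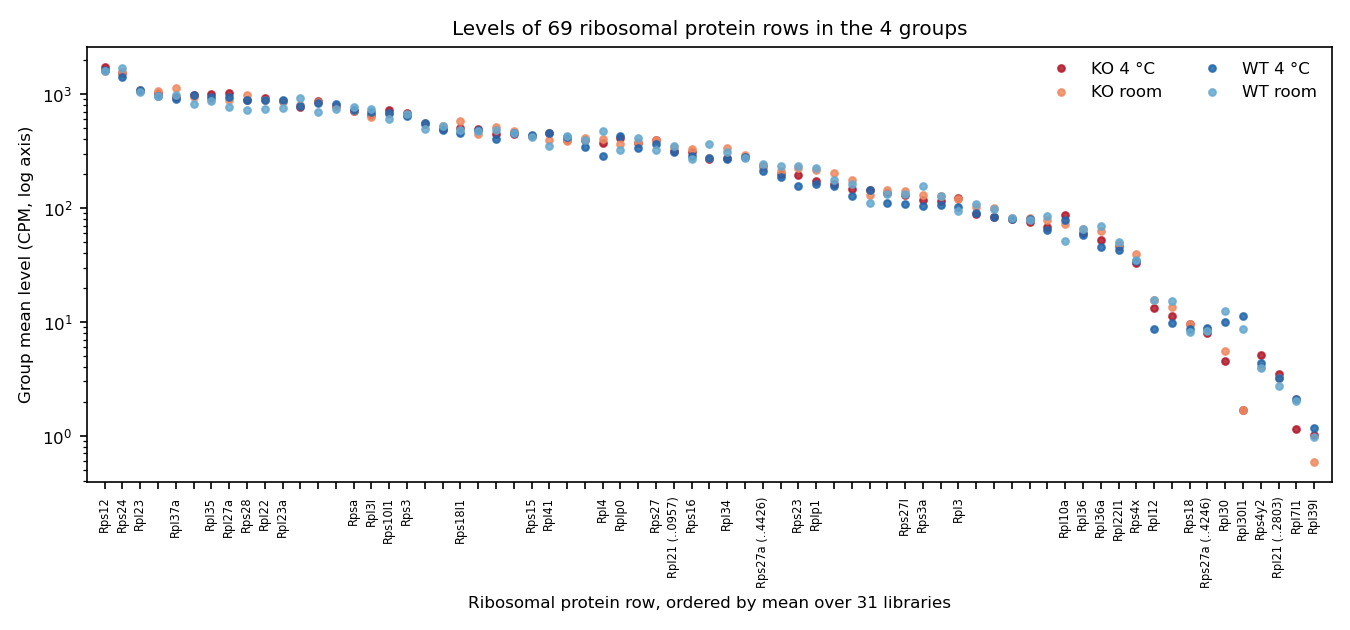
Group mean level (CPM, log axis) of each of the 69 ribosomal protein rows, ordered from left to right by the mean over 31 libraries, with the rows named in the text labelled. Points are the 4 group means, which lie close together for most rows, while rows themselves run from 1647 CPM (Rps12) to 0.949 CPM (Rpl39l).

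Levels differed between members by far more than between groups. Since a tag is counted once per transcript, CPM was not divided by transcript length. Among the rows with the highest mean over 31 libraries were Rps12 at 1647 CPM and Rps24 at 1549 CPM, both of the small subunit, and Rpl23 at 1072 CPM and Rpl37a at 991 CPM, both of the large. In all, 49 rows averaged at least 100 CPM, 13 at least 800 CPM and 10 under 20 CPM. Rps12 ranged from 1127 to 2284 CPM (median 1743) in knockout rats in the cold, 1362 to 1809 (median 1605) in knockout rats at room temperature, 1351 to 1961 (median 1641) in control rats in the cold and 1252 to 2031 CPM (median 1600.3) in control rats at room temperature. All 4 ranges overlapped.

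The lowest rows were mostly paralogs and extra copies. Rpl39l, a paralog known from mouse testis, averaged 0.949 CPM, Rpl7l1 1.83 CPM, the second Rpl21 row 3.15 CPM, Rps4y2 4.36 CPM and Rpl30l1 5.98 CPM. Where 2 rows shared a symbol, 1 took nearly all the tags: the main Rpl21 row averaged 329 CPM against 3.15 CPM in the other, and the main Rps27a row, which encodes ubiquitin fused to a ribosomal protein, averaged 230 CPM (229.8) against 8.44 CPM. The large rat families of processed copies make such splits uncertain. Of the 69 rows, 57 had a gene identifier that RefSeq lists under the same symbol and 12 did not. The row named Rpl30 carried the identifier of Rpl30l2, that named Rpl10a the identifier of the pseudogene Rpl10a-ps1, and that named Rpl22 the identifier of the pseudogene Rpl22-ps2. The row named Rplp1 carried the identifier of a gene on chromosome 17, while RefSeq lists Rplp1 on chromosome 8. The row named Rps12 carried that of a gene on chromosome 19, while Rps12 lies on chromosome 1. The identifier of the row named Rpl36a had no RefSeq entry. The rows Rps18 (8.99 CPM) and Rps18l1 (505.6 CPM) carried each other's identifiers. Rps10l1, which RefSeq lists as a pseudogene, was counted at 673 CPM while Rps10 itself had no row. For these rows a level belongs to the row and cannot be assigned to 1 locus.

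Cold was tested first. In knockout rats, none of the 69 rows passed an edgeR adjusted p of 0.05 between 4 °C and room temperature, where 1.38% of all genes did. By unadjusted p under 0.05, edgeR found 2 rows (both lower), where it found 14.3% of all genes. DESeq2 called 0 rows and 2.91% of all genes. The median change of the rows was -0.05 on the log2 scale, against 0.02 for all genes, and 23 of 69 were above 0 (33.3%, against 53.4% of all genes). The lowest p belonged to Rpl34, a protein of the large subunit, at -0.28 ± 0.11 (SE, edgeR adjusted p 0.185), and to Rpl7l1, at -0.85 ± 0.34 (edgeR adjusted p 0.218).

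In control rats, again none of the 69 rows passed, where 0.853% of all genes did. At unadjusted p under 0.05, edgeR found 6 rows (8.7%), where it found 14.2% of all genes. DESeq2 called 0 rows and 2.03% of all genes. The stalk scaffold Rplp0 was at 0.40 ± 0.13 (edgeR adjusted p 0.125), Rpl41, the smallest protein of the large subunit, at 0.36 ± 0.14 (edgeR adjusted p 0.214), and Rpl23a, which lies at the exit of the peptide tunnel, at 0.23 ± 0.10 (edgeR adjusted p 0.265). Without control animals 1 and 2 at room temperature these changes were 0.23 for Rplp0, 0.17 for Rpl41 and 0.13 for Rpl23a. The cold effect in the 2 genotypes was not shown to differ for any row. The edgeR interaction called 0 of 69 and 0% of all genes, with 1 row and 7.31% of all genes at unadjusted p under 0.05. For the interaction DESeq2 called 0 rows and 0.00886% of all genes.

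With the cold effects of both genotypes averaged, which uses all 31 libraries for 1 contrast, 2 of 69 rows passed, where 5.65% of all genes did (3.67% higher and 1.98% lower). At unadjusted p under 0.05 there were 4 rows, where 19.5% of all genes stood. Rplp0 rose and Rpl34 fell. Rplp0 was measured at 356 to 533 CPM (median 410.2) in knockout rats in the cold, against 319.6 to 422 CPM (median 352) in knockout rats at room temperature. In control rats it was measured at 380.8 to 477 CPM (median 422) in the cold, against 198 to 470.2 CPM (median 342) at room temperature. The ranges overlapped in both genotypes, and the low end at room temperature came from control animals 1 and 2, at 211 and 198 CPM. The averaged change was 0.30 ± 0.09 (SE, edgeR adjusted p 0.0463), and it was 0.22 ± 0.07 without those 2 libraries (edgeR adjusted p 0.0452).

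Rpl34 moved the other way. It ranged from 219.9 to 308 CPM (median 287) in knockout rats in the cold, against 258 to 418 CPM (median 334) in knockout rats at room temperature. It ranged from 218 to 303 CPM (median 268) in control rats in the cold, against 252 to 346 CPM (median 327) in control rats at room temperature. The cold groups had the lower median in both genotypes, and the ranges overlapped. The averaged change was -0.24 ± 0.07 (SE, edgeR adjusted p 0.0443). Both calls sat near the threshold: leaving out 1 library at a time, the adjusted p of Rplp0 ran from 0.012 to 0.0875 and was above 0.05 in 24 of 31 edgeR fits, and that of Rpl34 ran from 0.0218 to 0.0808 and was above 0.05 in 18 of 31. No such fit called both, and each change kept its sign in all 31.

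Rpl41 came next, at 0.29 ± 0.10 (edgeR adjusted p 0.077). DESeq2 called Rpl41, at an adjusted p of 0.0496, beside Rplp0 and Rpl34, where it called 7.04% of all genes. The medians of Rpl41 were 463 CPM in knockout rats in the cold, against 401 CPM in knockout rats at room temperature. In control rats they were 450.8 CPM in the cold, against 397 CPM at room temperature. Control animals 1 and 2 at room temperature, at 215 and 186 CPM, lay below all other libraries, the lowest of which had 318 CPM. Rplp1 is the partner of Rplp0 in the stalk, though the row of that name carried another gene's identifier. The Rplp1 row had medians of 203 CPM in knockout rats in the cold, against 267 CPM in knockout rats at room temperature. In control rats the row had medians of 176 CPM in the cold, against 275 CPM at room temperature. The averaged change of the Rplp1 row was -0.38 ± 0.29 (edgeR adjusted p 0.522), with a 95% interval of -0.98 to 0.22. Rpsa, the laminin-receptor protein of the small subunit, was measured more tightly, at -0.05 ± 0.08 with an interval of -0.21 to 0.12 (edgeR adjusted p 0.814).

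Over all rows the median change with cold was -0.05 on the log2 scale, against -0.02 for all genes, and 27 of 69 were above 0 (39.1%, against 47% of all genes). Leaving out 1 library at a time, the rows' median ran from -0.1 (without knockout animal 29 in the cold) to -0.025 (without control animal 4 at room temperature), and it was -0.112, against 0.00352 for all genes, without control animals 1 and 2 at room temperature. For 39 of the 69 rows the 95% interval of the averaged cold change lay within 0.5 of 0 on the log2 scale, as it did for 52.3% of all genes. For the other 30 the interval reached past that limit, so a change of that size was not excluded by the spread between animals.

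**Figure D2:**
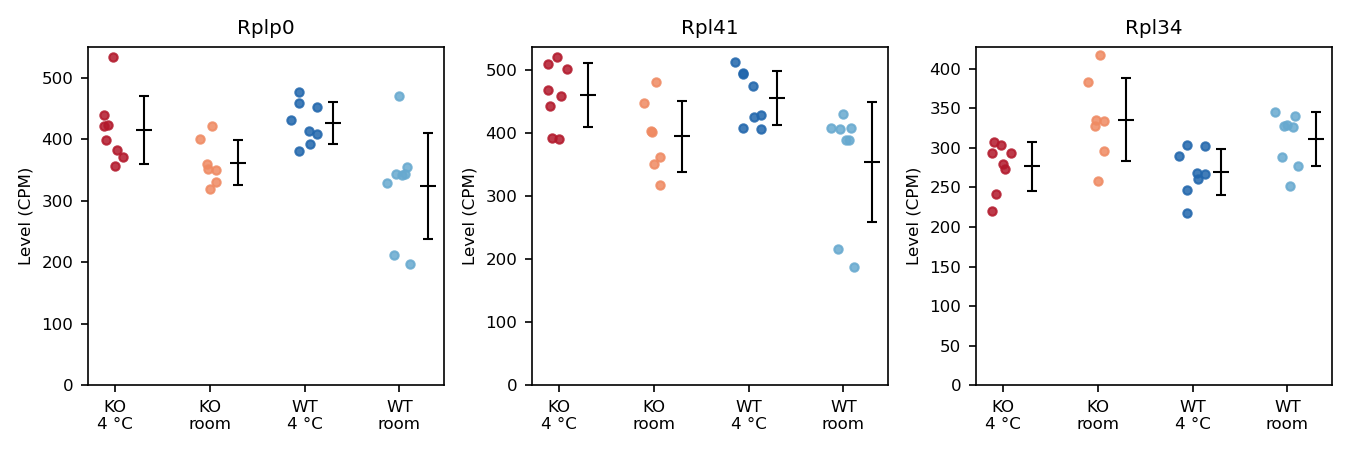
Level (CPM) of Rplp0, Rpl41 and Rpl34 in each library by group, with the group mean and SD beside the points. Rplp0 and Rpl41 were higher and Rpl34 lower on average in the cold groups, with overlapping ranges, and the 2 lowest points of Rplp0 and Rpl41 are control animals 1 and 2 at room temperature.

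The muscle's other markers moved with cold in the same libraries. Of the 9 slow-fibre genes, 8 rose in the averaged contrast, among them Myh7, the slow myosin heavy chain, at 0.88 ± 0.11 (SE, edgeR adjusted p 1.09e-05). Their summed level ran from 13262 to 30507 CPM in knockout rats in the cold, against 8560 to 14461 CPM in knockout rats at room temperature, and from 18378 to 24815 CPM in control rats in the cold, against 6124 to 16597 CPM in control rats at room temperature. Among the other marker rows, 1 of 11 muscle fibre genes, 4 of 11 immune genes, 3 of 4 red-cell rows, 1 of 9 adipocyte genes and 1 of 6 satellite-cell and regeneration genes rose, 1 of 9 endothelial genes fell, and 0 of 7 fibroblast genes were called. Their part in the changes of Rplp0 and Rpl34 was not tested.

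The knockout was compared with control at each temperature. At room temperature, none of the 69 rows passed in edgeR, and 0% of all genes did. By unadjusted p under 0.05 there were 5 rows, where 7.06% of all genes stood. DESeq2 called 0 rows and 0.00886% of all genes. In the cold none passed either, where 0.00992% of all genes did, 1 gene in all. There, 4 rows and 6.28% of all genes had an unadjusted p under 0.05. DESeq2 called 0 rows and 0.0709% of all genes. Averaged over both temperatures, edgeR called 0 of 69 and 0% of all genes, with 4 rows and 6.4% of all genes at unadjusted p under 0.05, and DESeq2 called 1 row, Rpl30, where it called 0.0797% of all genes.

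Of the small subunit, Rps28, which lies near the channel where mRNA leaves, had the lowest p at room temperature. It ranged from 808 to 1297 CPM (median 961) in knockout rats at room temperature, against 569.9 to 973 CPM (median 747) in control rats at room temperature. In the cold it ranged from 703 to 1238 CPM (median 885) in knockout rats, against 751 to 1095 CPM (median 846) in control rats. The room temperature difference was 0.42 ± 0.13 (edgeR adjusted p 0.698) and fell short of the threshold. The averaged knockout effect had a median over the 27 small subunit rows of 0.10 on the log2 scale, over the 40 large subunit rows of 0.03 and over all genes of 0.01. Of the 69 rows, 50 were above 0 (72.5%, against 51.8% of all genes). Without control animals 1 and 2 at room temperature, the median was -0.00474 for the 69 rows and 0.0177 for all genes, so the direction of the rows' median rested on those 2 libraries. For 45 of the 69 rows the 95% interval of the averaged knockout change lay within 0.5 of 0, as it did for 62.9% of all genes.

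**Figure D3:**
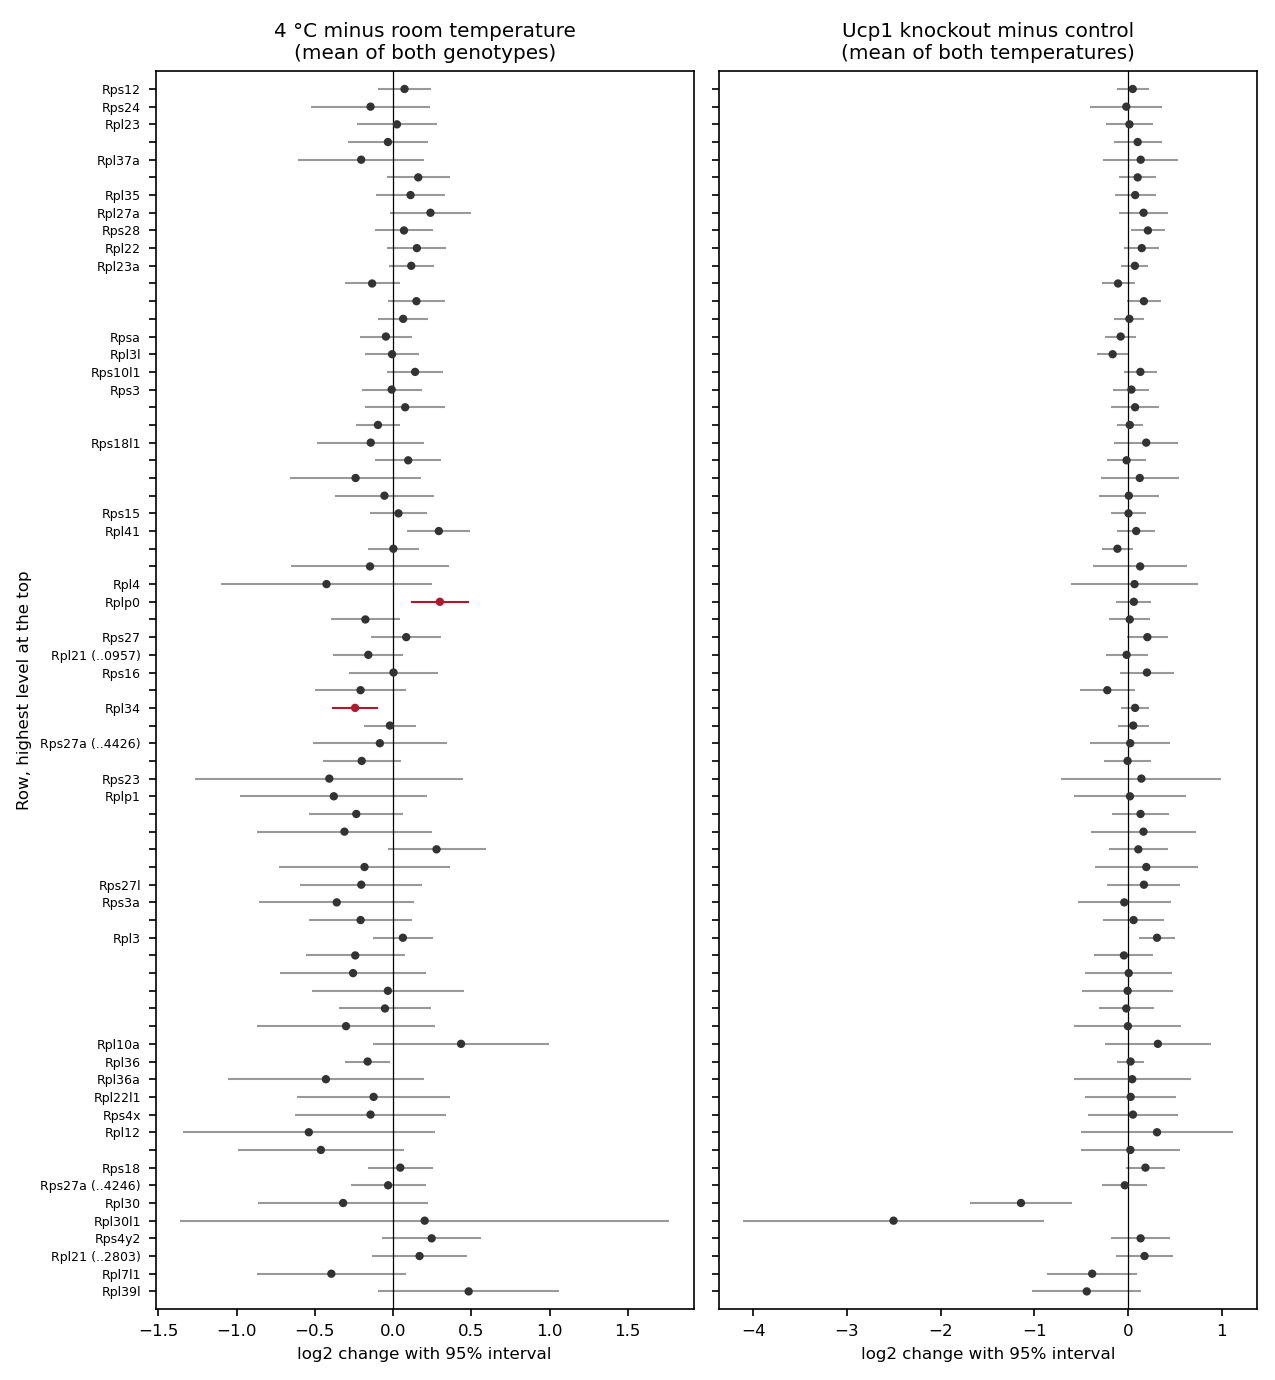
Log2 change of each ribosomal protein row with its 95% interval, cold minus room temperature averaged over genotypes on the left and knockout minus control averaged over temperatures on the right, with the highest level at the top and the rows named in the text labelled. The red rows, Rplp0 and Rpl34, are the only ones past an edgeR adjusted p of 0.05, and the widest intervals belong to sparse or unevenly counted rows such as Rpl30l1.

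Of the large subunit, the general form Rpl3, which reaches into the catalytic centre, and Rpl3l, its paralog of heart and skeletal muscle, were measured side by side. Rpl3l was the more abundant in every group. Its level ran from 499.9 to 801 CPM (median 717) in knockout rats in the cold, 491 to 714 CPM (median 679) in knockout rats at room temperature, 589 to 799.8 CPM (median 725.5) in control rats in the cold and 582 to 917 CPM (median 724) in control rats at room temperature. Rpl3 ran from 89.8 to 160.4 CPM (median 122) in knockout rats in the cold, 99.8 to 158 CPM (median 113) in knockout rats at room temperature, 93.9 to 115 CPM (median 99.2) in control rats in the cold and 69.8 to 118 CPM (median 98.5) in control rats at room temperature. The averaged knockout effect was 0.31 ± 0.10 for Rpl3 (edgeR adjusted p 0.489) and -0.16 ± 0.08 for Rpl3l (edgeR adjusted p 0.788), so neither passed.

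The ratio of the 2 forms within a library needs no scaling between libraries. Rpl3l counted 5.76 ± 2.03 times Rpl3 in knockout rats in the cold, 5.35 ± 1.18 times in knockout rats at room temperature, 6.93 ± 0.90 times in control rats in the cold and 8.30 ± 2.95 times in control rats at room temperature (mean ± SD over libraries). The ratios of all 4 groups overlapped, and the highest was 12.9, in a control rat at room temperature. At room temperature the knockout differed from control by -0.59 on the log2 scale (two-sided exact permutation test, p = 0.0149, adjusted p = 0.239), and in the cold by -0.35 (p = 0.124, adjusted p = 0.659, exact permutation test). Without control animals 1 and 2 the room temperature difference was -0.36.

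Ratios of 4 paralog pairs were tested in 4 comparisons each, 16 tests in all, and none passed an adjusted p of 0.05 in the exact permutation tests. Rps27l, a paralog of Rps27 that p53 induces in human cells, counted 0.328 ± 0.110 times Rps27 in knockout rats in the cold, 0.358 ± 0.110 times in knockout rats at room temperature, 0.304 ± 0.109 times in control rats in the cold and 0.408 ± 0.073 times in control rats at room temperature. In control rats the cold difference of this ratio was -0.50 on the log2 scale (exact permutation test, p = 0.0448, adjusted p = 0.358). Rpl22l1 counted between 0.0525 and 0.0645 times the Rpl22 row, which carried a pseudogene's identifier, in the 4 group means. Single libraries ran from 0.0133 to 0.0935. Rps4y2 counted between 0.137 and 0.188 times Rps4x in the group means, with single libraries from 0.0414 to 0.58.

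The Rpl30 row and Rpl30l1 had the largest knockout differences of the 69 rows in all 3 knockout contrasts, though edgeR called neither. Rpl30 is a large subunit protein, and both rows are copies of it by name, so reads could go to either. The Rpl30 row ranged from 1.94 to 6.91 CPM (median 4.44) in knockout rats in the cold, against 4.29 to 19.4 CPM (median 7.90) in control rats in the cold. It ranged from 2.63 to 16.3 CPM (median 3.62) in knockout rats at room temperature, against 4.17 to 19.3 CPM (median 13.8) in control rats at room temperature. Knockout animals 14 and 15 at room temperature, at 16.3 and 6.06 CPM, lay inside the control range, and the rest of their group lay below it. In the cold, knockout animals 25, 29, 30 and 31, at 5.29 to 6.91 CPM, lay inside the control range of the cold. The differences were -1.13 ± 0.37 in the cold (edgeR adjusted p 0.576), -1.16 ± 0.39 at room temperature (edgeR adjusted p 0.698) and -1.14 ± 0.27 averaged (edgeR adjusted p 0.265). For the averaged difference DESeq2 gave -1.15 ± 0.26 with an adjusted p of 0.0203. Over 31 edgeR fits that each left out 1 library, the adjusted p ran from 0.0137 to 0.497. Only the fit without animal 14, the highest knockout library, passed, at -1.43 (edgeR adjusted p 0.0137).

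Rpl30l1 was close to all or none. It was above 1 CPM in 2 of 8 knockout rats in the cold, 1 of 7 knockout rats at room temperature, 7 of 8 control rats in the cold and 5 of 8 control rats at room temperature. Its 2 positive knockout libraries in the cold had 4.55 and 8.88 CPM, and the other 6 were at 0. At room temperature, knockout animal 14 had 11.2 CPM, and the other 6 had 0 to 0.211 CPM. Control rats in the cold reached 20.7 CPM with 1 animal at 0.11 CPM, and control rats at room temperature reached 20.8 CPM with 3 animals at or below 0.209 CPM. Animals of both genotypes therefore lay at both ends. The averaged difference was -2.50 ± 0.79 (edgeR adjusted p 0.499), a fitted value that depends on the prior count because many libraries hold no tags.

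**Figure D4:**
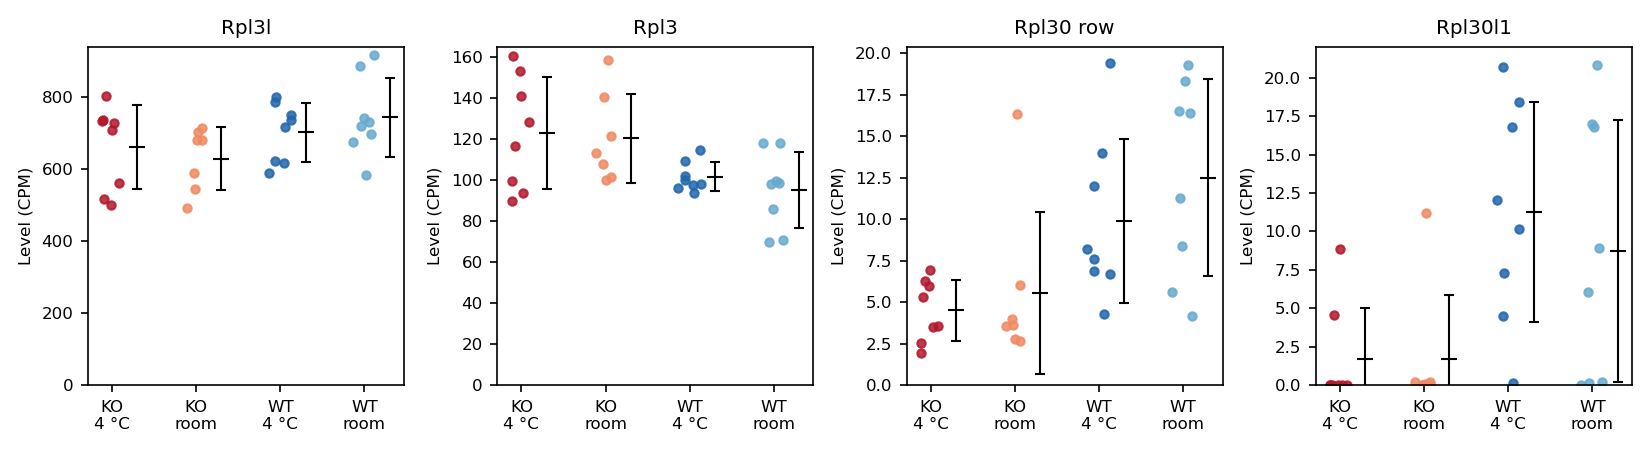
Level (CPM) of Rpl3l, Rpl3, the Rpl30 row and Rpl30l1 in each library by group, with the group mean and SD beside the points (SD bars are drawn from 0 where they would pass below it). Rpl3l lay several times above Rpl3 in every group, and most knockout libraries had no Rpl30l1 tags while most control libraries had 4.52 to 20.8 CPM.

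Among the sparsest paralogs, Rpl7l1 was at 0.402 to 2.15 CPM (median 0.982) in knockout rats in the cold, against 1.01 to 3.17 CPM (median 2.07) in knockout rats at room temperature and 1.09 to 3.09 CPM (median 2.26) in control rats in the cold. The knockout difference in the cold was -0.84 ± 0.33 (edgeR adjusted p 0.726). The interaction of Rpl7l1 was -0.92 ± 0.47 (edgeR adjusted p 0.699), that of Rps28 -0.42 ± 0.18 (edgeR adjusted p 0.628) and that of Rpl23a -0.23 ± 0.14 (edgeR adjusted p 0.774). Rpl7l1 rests on 4 to 33 counts per library.

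Within groups, libraries differed more than groups did, and the members did not vary as 1 block. Their median SD within groups was 0.415 on the log2 scale, against 0.42 for all genes, and the median correlation between pairs of members, on deviations from group means over 31 libraries, was 0.206. The SD was under 0.2 for 5 rows, among them Rpl36 at 0.168 and Rpl23a at 0.169. It was above 1 for 6 rows, highest for Rpl30l1 at 2.33, Rps23 at 1.54 and Rpl12 at 1.34. Rps23, a protein of the decoding centre of the small subunit, ranged from 50.4 to 391 CPM (median 226) in knockout rats in the cold, 29.3 to 387 CPM (median 266) in knockout rats at room temperature, 17.01 to 267 CPM (median 189.8) in control rats in the cold and 8.83 to 377 CPM (median 313) in control rats at room temperature. Low and high libraries occurred in all 4 groups.

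The first principal component of the genes that are no members held 35.2% of their variance, and its scores overlapped in all 4 groups. Over 31 libraries, 25 of the 69 rows correlated with it above 0.7 and 5 below -0.7. The share of all genes past these limits was not computed, so the counts do not set the rows apart from other genes. These correlations describe points that share a library and its scaling, and the sign of a component is arbitrary. The 25 comprised 11 small subunit, 13 large subunit and 1 stalk row, led by Rpl36a (r = 0.952), Rps24 (r = 0.943) and Rpl4 (r = 0.943), with a median SD within groups of 0.773. The other 5, with a median SD of 0.28, included Rpl27a and Rps15 (r = -0.824 each), Rpl35 (r = -0.81) and Rps3 (r = -0.793), which lines the mRNA entry channel. The split did not follow the subunits.

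Taking the libraries lowest and highest in Rps23 in each group, knockout animal 25 in the cold had 50.4 CPM of Rps23 and 1236 CPM of Rpl27a, whereas animal 29 of the same group had 391 and 910.3 CPM. Knockout animal 12 at room temperature had 29.3 CPM of Rps23 and 1262 CPM of Rpl27a, whereas animal 10 had 387 and 843 CPM. Control animal 17 in the cold had 17.01 CPM of Rps23 and 1607 CPM of Rpl27a, whereas animal 19 had 267 and 676 CPM. At room temperature, control animal 1 had 8.83 CPM of Rps23 and 828 CPM of Rpl27a, whereas animal 5 had 377 and 804 CPM. In each group the library lowest in Rps23 had more Rpl27a than the library highest in it, by the least in control rats at room temperature. Rps23 and Rpl27a were picked from opposite ends of the component in these same libraries. Their opposition was therefore largely set by the choice and serves as an illustration only. Rpl3l varied apart from the rest, with a median correlation of -0.451 with the other members, while Rps16 had 0.593.

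**Figure D5:**
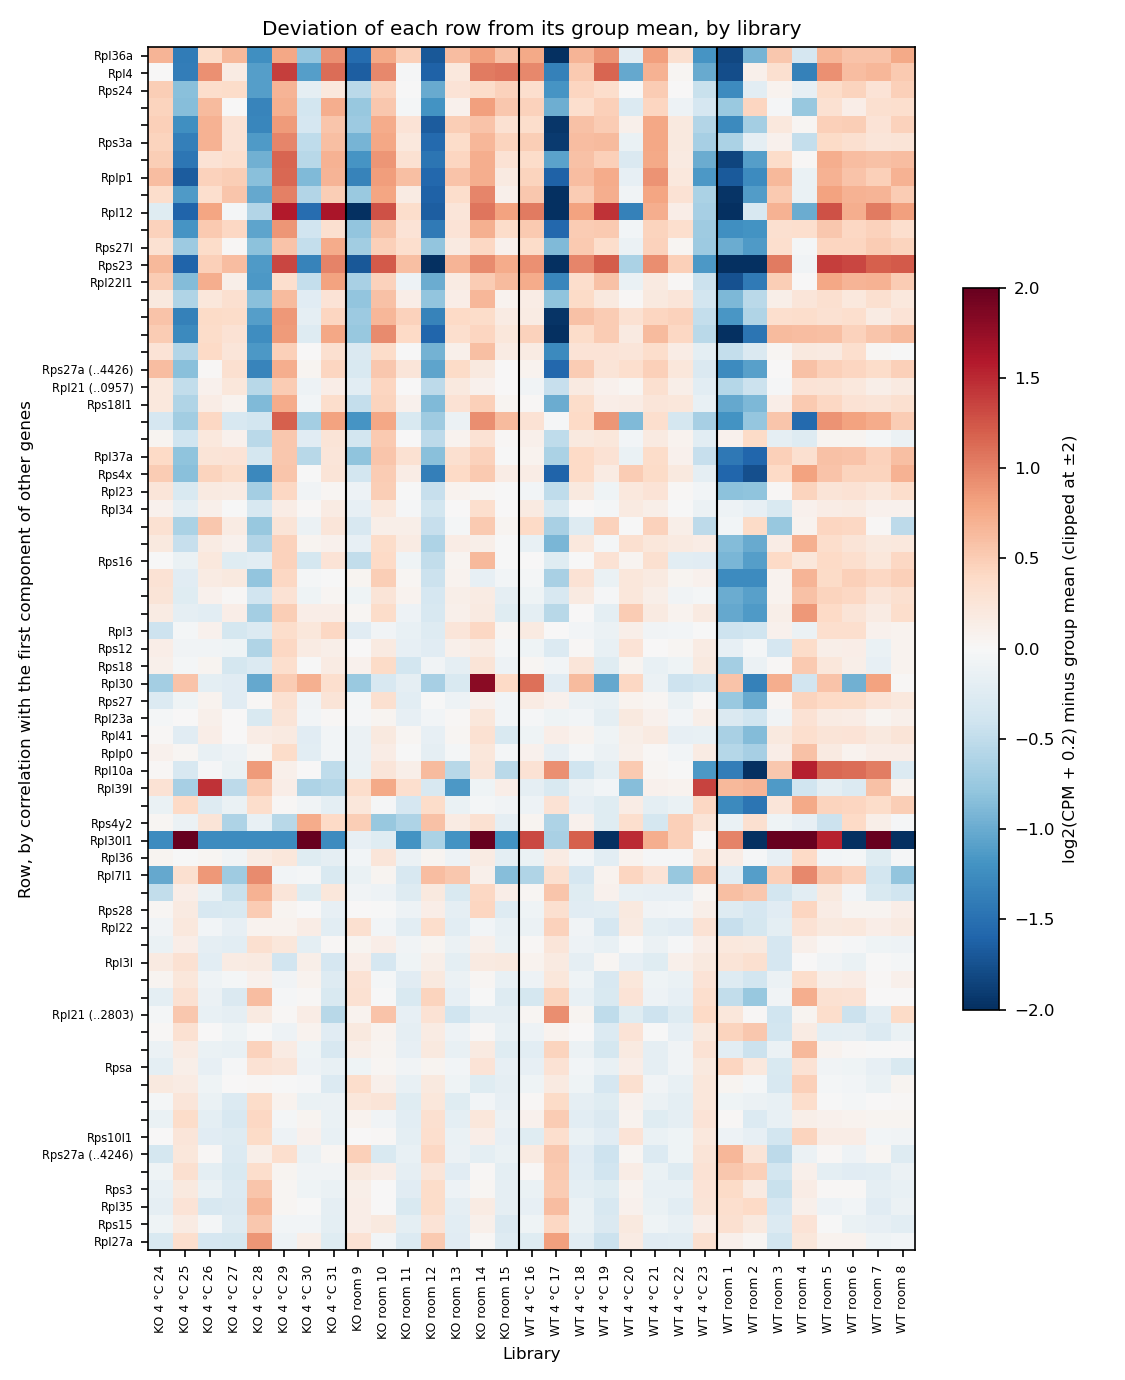
Deviation of each ribosomal protein row from its group mean (log2(CPM + 0.2), clipped at ±2) in each library, with rows ordered by their correlation with the first principal component of the other genes vertical lines between groups and labels on the rows named in the text. Libraries that are low (blue) in the upper rows, such as knockout animals 28 and 12 and control animal 17, are high (red) in the lowest rows. This opposition follows in part from the order of the rows.

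The mean log2 level of the 69 rows in a library correlated with the same component at r = 0.781, with the summed adipocyte markers at r = 0.507, with the muscle fibre markers at r = -0.567 and with the endothelial markers at r = -0.644, over the same 31 libraries and as a description only. For the other marker lists r was 0.479 (fibroblast), 0.319 (satellite cell and regeneration), -0.0113 (immune), -0.119 (slow fibre) and -0.443 (erythroid). With total counts r was -0.24. By Spearman rank the adipocyte, muscle fibre and endothelial values were 0.515, -0.485 and -0.499. Control animals 1 and 2 at room temperature had the lowest mean levels of the rows, 6.70 and 6.77. The summed adipocyte markers ran from 1288 to 3748 CPM in knockout rats in the cold, 795 to 1683 CPM in knockout rats at room temperature, 925 to 3036 CPM in control rats in the cold and 444 to 2633 CPM in control rats at room temperature. Endothelial markers ran from 213 to 377 CPM in knockout rats in the cold, 233 to 376 CPM in knockout rats at room temperature, 191 to 273 CPM in control rats in the cold and 252 to 430.3 CPM in control rats at room temperature. Car3, at a mean of 1112 CPM, was the largest of the adipocyte markers, with Cfd next at 350 CPM. The adipocyte sum therefore mainly follows Car3 and need not track the number of adipocytes. The part of adipocytes and endothelial cells in the ribosomal protein levels was not tested. With the first component as a covariate, 4 rows passed in the averaged cold contrast (Rplp0, Rpl41, Rps3a and Rpl34), where 12.6% of all genes did.

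Genes that work with the ribosome were read from the same fit. In the averaged cold contrast, 0 of 9 elongation factors, 0 of 30 initiation factors, 0 of 41 genes of ribosome biogenesis and RNA polymerase I, and 0 of 22 genes of growth control of translation passed in edgeR, with 1, 4, 7 and 3 at unadjusted p under 0.05, or 11.1%, 13.3%, 17.1% and 13.6% of each list, against 19.5% of all genes. Of 70 mitochondrial ribosomal proteins, Mrpl14 rose (0.44 ± 0.08, edgeR adjusted p 0.00135) and Mrpl51 fell (-0.29 ± 0.09, edgeR adjusted p 0.0435). Median changes of these 5 lists lay between -0.05 and 0.002, against -0.05 for the cytosolic rows and -0.02 for all genes. Within knockout rats Mrpl14 rose with cold (0.52 ± 0.12, edgeR adjusted p 0.0229), and it was the only gene of these 5 lists called in that contrast. None of these lists had a called gene for cold in control rats, for the knockout at either temperature or averaged, or for the interaction.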

How the data were processed

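RNA of gastrocnemius muscle from 31 rats was measured with QuantSeq 3′ libraries. The authors deposited raw read counts for each gene and a second table of normalized signal. That deposited signal was the counts divided by a constant for each library (the ratio varied by at most 5.23e-10 of its value), and tests used the counts alone. Rnor 6.0 and DESeq2 1.22.2 are named by the submitters' processing notes. Aligner, counter and strandedness were not given in the sources used here. Among listed genes the lowest total was 93 counts, so genes with fewer counts are not listed. Near-identical copies and processed copies may exchange reads, and counts without molecular identifiers include PCR copies.

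After filterByExpr (minimum count 10, minimum total 15), edgeR 4.0.16 in R 4.3.3 fitted a quasi-likelihood model with TMM scaling and 1 mean per group to all 31 libraries (27 residual degrees of freedom). P-values were adjusted by Benjamini-Hochberg over all 10082 genes, with a threshold of 0.05. The code was first tested on simulated data. The contrasts were cold minus room temperature, knockout minus control, their averages and the interaction. DESeq2 1.42.0, other scalings, no filter, a component covariate and leaving libraries out were the alternatives. Log2 levels used a prior count of 2. Ratios of the CPM of paralogs with at least 10 counts in every library were tested by exact permutation, with 1 count added as an alternative, in scipy 1.17.1, and figures were drawn with matplotlib 3.10.9.

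The rows named were, in each contrast, the members that passed or the 3 with the smallest p, plus fixed paralogs, the 5 highest and 5 lowest levels and copies sharing a symbol; rows named for their spread or their correlation were picked after their values were seen. The members and lists were chosen with earlier results of these data known. Names and start windows come from RefSeq GRCr8, while counts rest on Rnor 6.0. All 105 pairs of libraries within a group differed beyond counting noise (chi-square per degree of freedom 5.27 or more), and p-values measure the spread between animals. Labels give each rat its own number and name no batch. Results for a few genes are not reported here.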

Additional observations from a re-analysis of the deposited data

Results flagged for a closer look

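In all, 112 checks were made, each of 1 row or of the summed ribosomal protein share in 1 group of 7 or 8 animals. In 5 of them, a library's distance to its nearest neighbour was large for the range of its group. The limit used is meant to flag about 1 in 20 groups of normal values. Sparse rows counted in the same libraries need not meet that, so the 5 are not read as more than chance. In knockout rats at room temperature, animal 14 had 16.3 CPM of the Rpl30 row, against 2.63 to 6.06 CPM in the others, and 11.2 CPM of Rpl30l1, against 0 to 0.211 CPM. In knockout rats in the cold, animal 26 had 2.71 CPM of Rpl39l, against 0.474 to 1.33 CPM in the others, and animal 29 had 533.4 CPM of Rplp0, against 356 to 439 CPM. In control rats in the cold, animal 23 had 2.95 CPM of Rpl39l, against 0.488 to 1.12 CPM in the others.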

How the results depend on the processing

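No paired analysis was possible because the labels number every rat separately and nothing ties animals across groups. With scores on the first principal component added to the fit, 1 ribosomal protein row passed for cold in knockout rats (Rpl34; 6.73% of all genes), 1 for cold in control rats (Rplp0; 3.75% of all genes) and 4 for cold averaged over genotypes, where 2 had passed (12.6% of all genes). In that averaged contrast 0 passed with library totals as the only scaling (5.46% of all genes) and 0 without a filter (5.16% of all genes). DESeq2 called 1 row for the averaged knockout effect (Rpl30), and 0.0797% of all genes. Leaving out 1 library at a time gave 0 to 1 rows for cold in control rats (the 1 was Rplp0, without control animal 4 at room temperature), 0 to 1 for cold averaged and 0 to 1 for the averaged knockout effect (Rpl30, without knockout animal 14 at room temperature). Without control animals 1 and 2 at room temperature, 3 rows passed for cold averaged (Rplp0, Rpl26 and Rpl34), with 7.2% of all genes, and 3 uncalled ratio differences changed sign: Rpl3l to Rpl3 for cold in control rats to 0.0347, Rps4y2 to Rps4x for cold in control rats to 0.58 and for the knockout at room temperature to 0.23. Over single omissions, uncalled ratio differences that changed sign ran from -0.37 to 0.029 (Rpl22l1 to Rpl22, cold in knockout rats), -0.36 to 0.0462 (the same pair, knockout at room temperature), -0.24 to 0.19 (the same pair, knockout in the cold), -0.0379 to 0.15 (Rpl3l to Rpl3, cold in knockout rats), -0.0146 to 0.25 (Rps27l to Rps27, knockout in the cold) and -0.17 to 0.28 (Rps4y2 to Rps4x, cold in control rats). Of counts without mitochondrially encoded transcripts, ribosomal protein rows took 3.13% in knockout rats in the cold, 3.28% in knockout rats at room temperature, 2.86% in control rats in the cold and 3.003% in control rats at room temperature. The causes were not tested. Rows under 20 CPM are limited by depth.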
